A study of Mus musculus with 8 samples.

Results

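Collagens, other matrix proteins and genes of hepatic stellate cells were followed in mouse liver across 4 genotypes. The set lists 41 genes. Its members were taken as probe sets that the array annotation assigns to exactly 1 of these symbols, and where a gene had several, the one with the highest mean over the 8 arrays stands for it. With 80 such probe sets, 39 members could be measured among 12393 genes on the array, and Fbn1 and Spp1 were not analysed here. The livers came from OB-/-/SHP-/- mice, which lack both leptin and SHP, from OB-/- mice, which lack leptin, from SHP-/- mice, which lack SHP, and from wild-type mice. All were of C57BL background and ate standard chow, and each genotype had 2 Affymetrix arrays of total liver RNA. The sources used here do not give age, sex or how the knockouts were made. Whether the 2 arrays of a genotype hold RNA of different animals is not stated in the labels, so p-values rest on a spread that may be technical.

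Hepatic stellate cells store vitamin A between the hepatocytes and the endothelium of the sinusoids. When activated they become contractile cells that secrete fibrillar collagens, and this is the main source of scar matrix in liver fibrosis. Transforming growth factor beta drives collagen synthesis in these cells and platelet-derived growth factor drives their division. Matrix metalloproteinases and their tissue inhibitors set how fast the matrix turns over. Leptin, a hormone of fat tissue, restrains feeding, and mice without it become obese with fatty livers. SHP, which Nr0b2 encodes, does not bind DNA itself but acts as a repressor through other nuclear receptors.

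The promoters of 3 members that were called higher in OB-/- than in wild-type livers are shown here as examples. Sequences are RefSeq's, of the build GRCm38.p6, and run 5′ to 3′ on the strand of the gene. Capitals mark 4 motifs on either strand, which do not overlap here. These were the GC box with the letters GGGCGG, the CCAAT box, the core CAGAC of the SMAD box, which factors downstream of transforming growth factor beta can bind, and the TATA box with the letters TATAAA. For Col1a2, Col3a1 and Vim the 250 bases before the gene's start are given, at chr6:4505368-4505617, chr1:45311288-45311537 and chr2:13574061-13574310, all on the + strand.
Col1a2: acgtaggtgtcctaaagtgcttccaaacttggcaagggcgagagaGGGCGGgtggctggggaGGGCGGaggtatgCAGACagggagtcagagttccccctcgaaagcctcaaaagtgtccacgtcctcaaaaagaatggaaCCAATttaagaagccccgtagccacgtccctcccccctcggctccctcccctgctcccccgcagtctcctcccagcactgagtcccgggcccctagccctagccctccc
Col3a1: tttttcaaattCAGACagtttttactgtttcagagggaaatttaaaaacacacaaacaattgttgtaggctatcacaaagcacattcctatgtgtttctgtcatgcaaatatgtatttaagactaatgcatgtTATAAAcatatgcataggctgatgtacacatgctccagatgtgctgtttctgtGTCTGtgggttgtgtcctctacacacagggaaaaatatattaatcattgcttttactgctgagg
Vim: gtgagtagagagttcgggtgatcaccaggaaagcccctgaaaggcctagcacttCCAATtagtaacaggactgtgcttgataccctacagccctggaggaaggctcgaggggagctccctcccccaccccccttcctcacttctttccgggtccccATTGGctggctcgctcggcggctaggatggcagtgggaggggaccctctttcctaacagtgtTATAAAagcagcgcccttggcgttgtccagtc

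In Col1a2 the GC boxes began 205 and 188 bases before the start, the SMAD core 175 and the CCAAT box 109 bases before it. Col3a1 held SMAD cores at 239 and 64 bases and a TATA box at 117 bases. Vim held CCAAT boxes at 196 and 94 bases and a TATA box at 32 bases. Of the members, 25 were matched by symbol in the promoter table. Of the 28 windows of these 25 genes, each the 250 bases before a start, 53.6% held GGGCGG, 35.7% CCAAT, 42.9% CAGAC and 10.7% TATAAA. Of all 32851 such windows, 32.7% held GGGCGG, 33.8% CCAAT, 42.2% CAGAC and 12.4% TATAAA, each on either strand. These shares describe letters in a window and say nothing of binding.

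Values are log2 expression as deposited, so a difference of 1 is a 2-fold change, and each error is limma's moderated standard error (SE) of the difference it follows. A gene was called at a Benjamini-Hochberg adjusted p below 0.05 over all 12393 genes. Counts at an unadjusted p below 0.05 are given below without the share of all genes at that cut. They therefore do not show an excess among the members or the lists. Array medians lay between 5.45 and 5.56, and 6 members (Col1a1, Lrat, Lox, Loxl1, Thbs1 and Timp1) had means below 4.83, the 40th percentile of all probe sets, where signal is dim. Nr0b2, whose probe set may lie inside or outside the deleted stretch, stood at 7.11 and 6.66 in OB-/-/SHP-/-, 8.01 and 8.01 in OB-/-, 7.78 and 8.31 in SHP-/- and 8.74 and 8.71 in wild-type livers, so it does not check the SHP labels. Xist, a transcript of female cells, was at 7.41 on OB-/- replicate 1 and between 4.31 and 4.70 elsewhere, while Eif2s3y, which is Y-linked, ranged from 6.57 to 7.50. The mean of 10 pancreatic acinar genes was 4.82 and 5.02 in OB-/-/SHP-/-, 6.41 and 5.94 in OB-/-, 4.44 and 4.53 in SHP-/- and 4.60 and 4.57 in wild-type livers. Hepatocyte genes averaged between 12.81 and 13.22 on every array. The signal of Gapdh probe sets at the 3' end exceeded that at the 5' end by 0.07 in OB-/-/SHP-/-, -0.04 in OB-/-, 0.27 in SHP-/- and 0.90 in wild-type RNA, an offset that grows as RNA degrades.

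Loss of leptin with SHP present, OB-/- against wild-type, moved more of these genes than any other comparison. Of the 39 members 15 were called (38.5%), 12 higher and 3 lower in OB-/-, against 16.9% of all genes, 7.58% higher and 9.36% lower. The members' median log2 difference was 0.29, that of all genes -0.01, and 19 members had an unadjusted p below 0.05. In bulk tissue, a change in the number of cells of a type and a change in RNA per cell cannot be told apart. The rises were spread over fibrillar and basement membrane collagens, a cytoskeletal gene, a growth factor, a protease inhibitor, a cross-linking enzyme, a glycoprotein and a galectin.

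**Figure D1:**
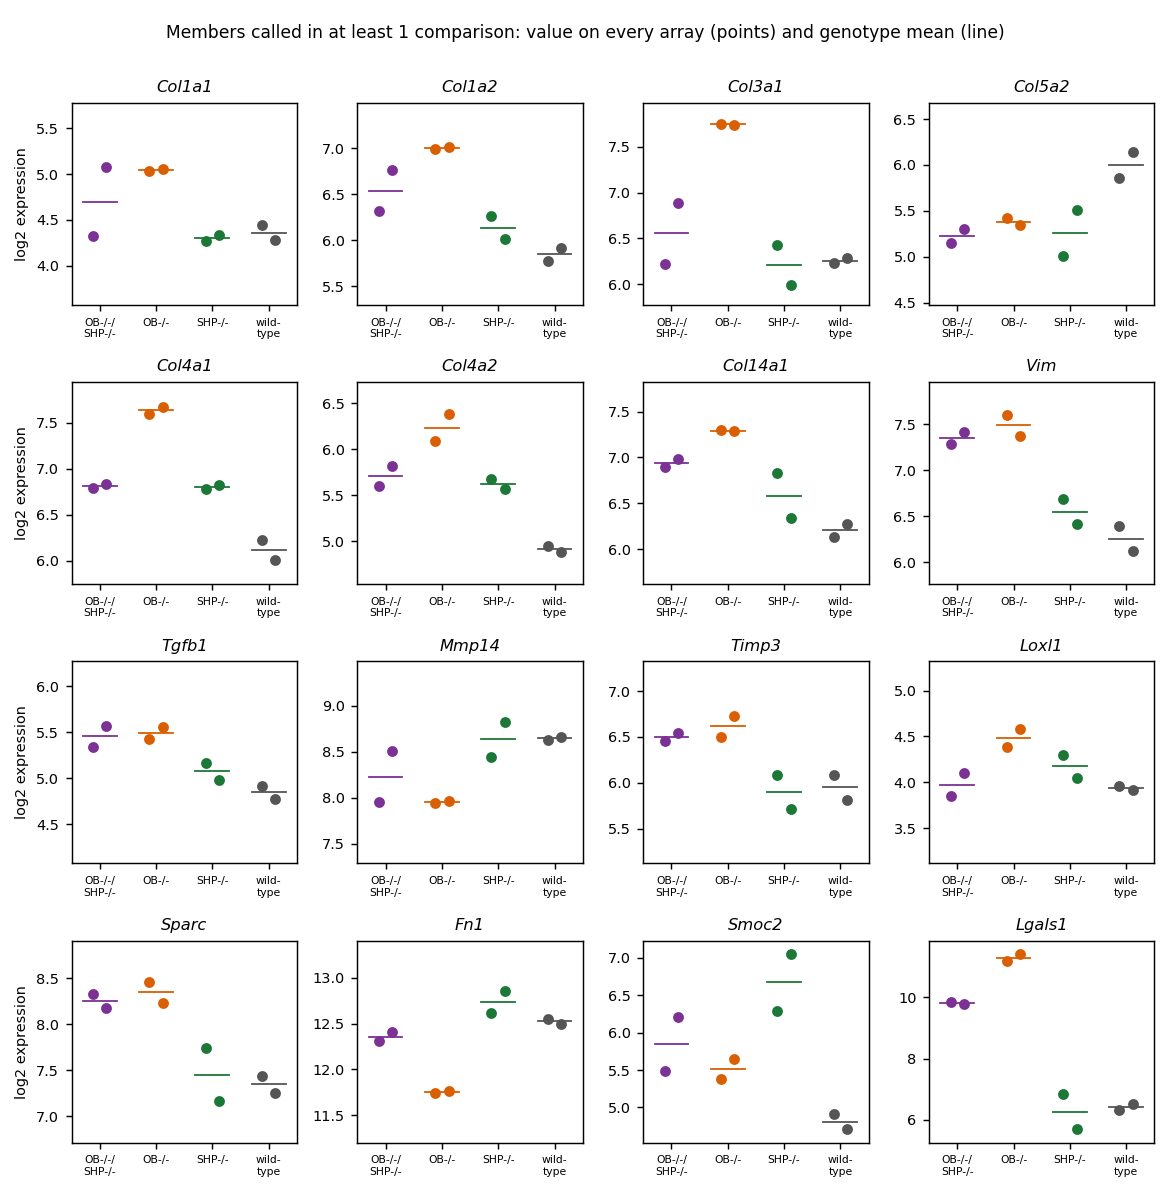
Log2 expression of the 16 members called in at least 1 comparison, with a point for each of the 8 arrays and a line for the mean of each genotype. Scales differ between panels. Col3a1, Col4a1 and Lgals1 were highest on both OB-/- arrays, and Smoc2 was highest on both SHP-/- arrays.

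Among fibrillar collagens, the rope-like proteins of scar tissue, 4 of 5 were called. Col3a1, the chain of type III collagen, read 7.75 and 7.74 in OB-/- livers, against 6.23 and 6.29 in wild-type livers, and rose 2.80-fold (log2 difference 1.49 ± 0.21, adjusted p = 7.4e-04). Col1a2, a chain of type I collagen, read 6.99 and 7.02 in OB-/- livers, against 5.77 and 5.92 in wild-type livers (1.16 ± 0.17, adjusted p = 9.7e-04). In both genes the OB-/- arrays lay together and far above the wild-type arrays. Col1a1, the partner chain of Col1a2, was dim, with 5.04 and 5.05 in OB-/- livers and 4.44 and 4.28 in wild-type livers, and passed by a narrow margin (0.68 ± 0.21, adjusted p = 0.0427). Its further probe set, dimmer still, read -0.19, and the call was lost without any one of the 4 arrays compared (adjusted p up to 0.203). Col5a2, a chain of type V collagen that regulates fibril width, moved the other way, at 5.42 and 5.35 in OB-/- livers and 5.86 and 6.14 in wild-type livers (-0.62 ± 0.18, adjusted p = 0.0345). Its further probe set differed by -0.04, and this call too was lost without any one of its 4 arrays. Col5a1, the partner chain of Col5a2, was not called, with values from 5.37 to 5.93 over all arrays.

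Of the 4 basement membrane collagens measured, both chains of type IV collagen rose and the other pair was not called. Type IV collagen forms the sheet beneath endothelium and epithelium, and it appears along the sinusoids when they lose their open structure. Col4a1 read 7.60 and 7.67 in OB-/- livers, against 6.22 and 6.01 in wild-type livers, a 2.87-fold rise (1.52 ± 0.13, adjusted p = 3.1e-05). Col4a2 read 6.09 and 6.38 in OB-/- livers, against 4.94 and 4.88 in wild-type livers (1.33 ± 0.15, adjusted p = 1.8e-04). The genotypes did not overlap in either gene, which adds nothing to calls made on the same arrays. The further Col4a1 probe set rose as well, by 0.99 (adjusted p = 0.00224 over all probe sets). Col15a1, whose product bridges basement membranes and fibrils, ranged from 5.68 to 6.34 over all arrays, and Col18a1, the precursor of endostatin that hepatocytes make in quantity, from 11.37 to 11.82.

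Col14a1, a fibril-associated collagen, rose to 7.30 and 7.29 in OB-/- livers, against 6.14 and 6.28 in wild-type livers (1.09 ± 0.17, adjusted p = 0.00129). The second Col14a1 probe set gave 0.97 (adjusted p = 9.1e-04 over all probe sets). The chains of type VI collagen, Col6a1, Col6a2 and Col6a3, which build beaded filaments around cells, were not called, with differences of 0.06, -0.02 and 0.15.

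Of the genes by which stellate cells are usually recognised, most were not called. Vim, the intermediate filament protein vimentin of mesenchymal cells, macrophages and endothelium, was the single one of 6 to be called, at 7.60 and 7.38 in OB-/- livers against 6.40 and 6.11 in wild-type livers (1.23 ± 0.16, adjusted p = 4.5e-04). Its 2 further probe sets rose by 1.29 and 1.61. Acta2, the smooth muscle actin that marks activated stellate cells, differed by -0.23 ± 0.20 (adjusted p = 0.521), and its 8 values lay between 4.75 and 5.40. Des, the filament protein desmin of stellate cells in rodents, differed by -0.0029 ± 0.13 and lay between 5.57 and 5.89 on all arrays. Lrat, the enzyme that esterifies retinol for storage in quiescent stellate cells, was dim and uneven, from 3.48 to 4.58. Rgs5, of pericytes, was not called at -0.33 ± 0.19, although 1 of its 3 further probe sets rose by 0.92 (adjusted p = 0.00573 over all probe sets) and the other 2 read -0.59 and 0.46.

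The growth factor Tgfb1 rose by 0.64 ± 0.15 (adjusted p = 0.0117), with 5.42 and 5.55 in OB-/- livers and 4.92 and 4.77 in wild-type livers. Without OB-/- replicate 2 or without wild-type replicate 2 the call was lost (adjusted p up to 0.0916). Pdgfra and Pdgfrb, the receptors for platelet-derived growth factor, were not called, with ranges of 5.01 to 5.68 and 5.14 to 5.79 over all arrays.

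Among proteases and inhibitors, Mmp14, a membrane-bound collagenase that also activates the gelatinase Mmp2, was lower in OB-/-, at 7.94 and 7.97 against 8.63 and 8.66 in wild-type livers (-0.69 ± 0.19, adjusted p = 0.0276). The further Mmp14 probe set read 0.39, in the other direction, so the fall rests on 1 probe set, and the call was lost without any one of its 4 arrays. Timp3, an inhibitor of metalloproteinases that binds to the matrix, rose to 6.50 and 6.73 in OB-/- livers against 6.09 and 5.81 in wild-type livers (0.67 ± 0.17, adjusted p = 0.0190). The other 3 Timp3 probe sets read 0.38 to 0.53, and none of them was called. Mmp2, Timp1 and Timp2 were not called, at -0.09, 0.16 and 0.37. Timp1, an inhibitor often raised in fibrotic liver, was dim on every array, from 3.51 to 4.37.

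Loxl1, an enzyme that cross-links elastin and collagen, rose within the dim range, at 4.38 and 4.59 in OB-/- livers and 3.96 and 3.92 in wild-type livers (0.54 ± 0.15, adjusted p = 0.0317). The call was lost without any one of these 4 arrays, and the related Lox was not called.

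Sparc, a matrix glycoprotein that binds collagen, rose 2.00-fold, with 8.46 and 8.24 in OB-/- livers and 7.44 and 7.26 in wild-type livers (1.00 ± 0.19, adjusted p = 0.00448). Fn1, fibronectin, which hepatocytes secrete into plasma and which also forms matrix, fell to 11.75 and 11.76 in OB-/- livers, against 12.55 and 12.50 in wild-type livers (-0.77 ± 0.14, adjusted p = 0.00327). Both Fn1 probe sets fell. Thbs1, Postn and Tgfbi were not called at 0.21, 0.39 and 0.21, nor was Smoc2 at 0.70 ± 0.26 (adjusted p = 0.0983). For Tgfbi, a matrix protein induced by transforming growth factor beta, the 3 further probe sets read 0.58 to 0.77, and 2 of them were called, so its result depends on the probe set. The leucine-rich proteoglycans Bgn, Dcn and Lum, which bind collagen fibrils, differed by 0.32, 0.43 and 0.13, and Dcn came closest to the threshold (adjusted p = 0.0516).

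Lgals1, galectin-1, a secreted lectin that binds glycans of matrix and cell surface and is made by many cell types, changed most among the members. It read 9.84 and 9.79 in OB-/-/SHP-/-, 11.17 and 11.42 in OB-/-, 6.84 and 5.69 in SHP-/- and 6.34 and 6.52 in wild-type livers. Both leptin-null genotypes lay far above both leptin-intact ones. OB-/- exceeded wild-type 29.2-fold (4.87 ± 0.28, adjusted p = 1.1e-06), and the second probe set gave 5.08.

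**Figure D2:**
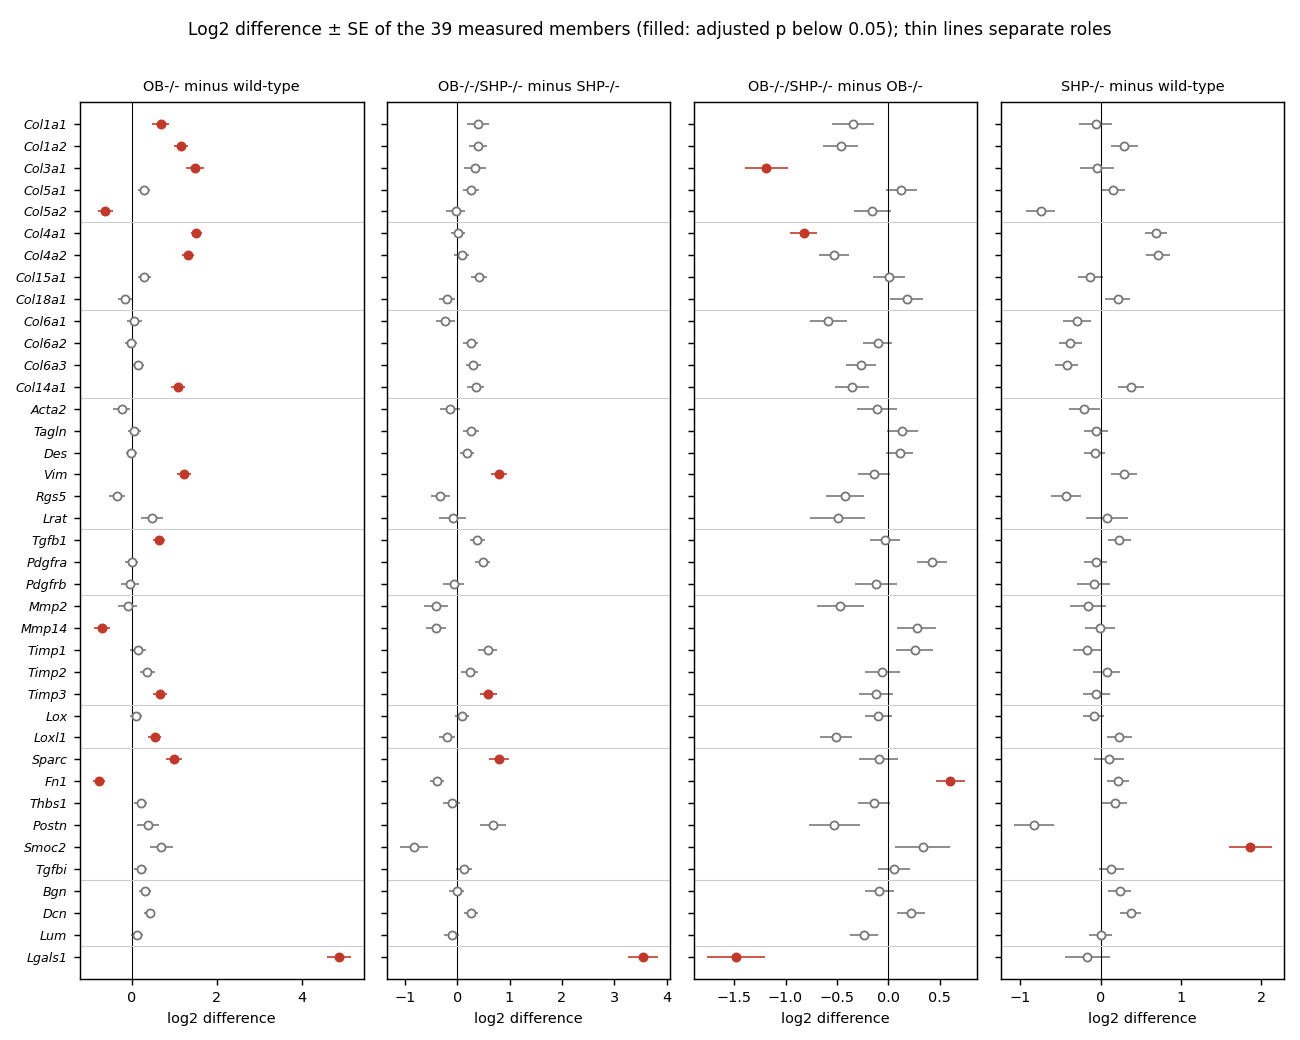
Log2 difference ± SE of the 39 measured members in 4 comparisons, with filled points at an adjusted p below 0.05. Scales differ between panels. OB-/- minus wild-type holds 15 filled points, OB-/-/SHP-/- minus SHP-/- and OB-/-/SHP-/- minus OB-/- hold 4 each, and SHP-/- minus wild-type holds 1.

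With any single array left out, 9 of the 15 calls stood in every case, namely those of Col14a1, Col1a2, Col3a1, Col4a1, Col4a2, Fn1, Lgals1, Sparc and Vim. The count of called members was 9 without OB-/- replicate 2. Other measures moved with the same comparison, and their part in these results was not tested. Pancreatic acinar genes were higher in OB-/- (6 of 10 called higher and 1 lower), and the Gapdh offset was -0.04 in OB-/- against 0.90 in wild-type RNA. Macrophage markers averaged 7.57 and 7.56 in OB-/- livers and 6.38 and 6.23 in wild-type livers, with 10 of 13 called, all higher. Endothelial markers averaged 6.58 and 6.49 in OB-/- livers and 6.08 and 5.74 in wild-type livers, with 3 of 11 called higher. Of 10 further stellate cell markers, only Ecm1 was called (0.79 ± 0.15, adjusted p = 0.00459), and the list averaged 6.14 and 6.17 in OB-/- livers and 6.02 and 6.02 in wild-type livers. Of 7 smooth muscle genes 1 was called, higher, and of 7 hepatocyte genes 3 were, all lower.

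**Figure D3:**
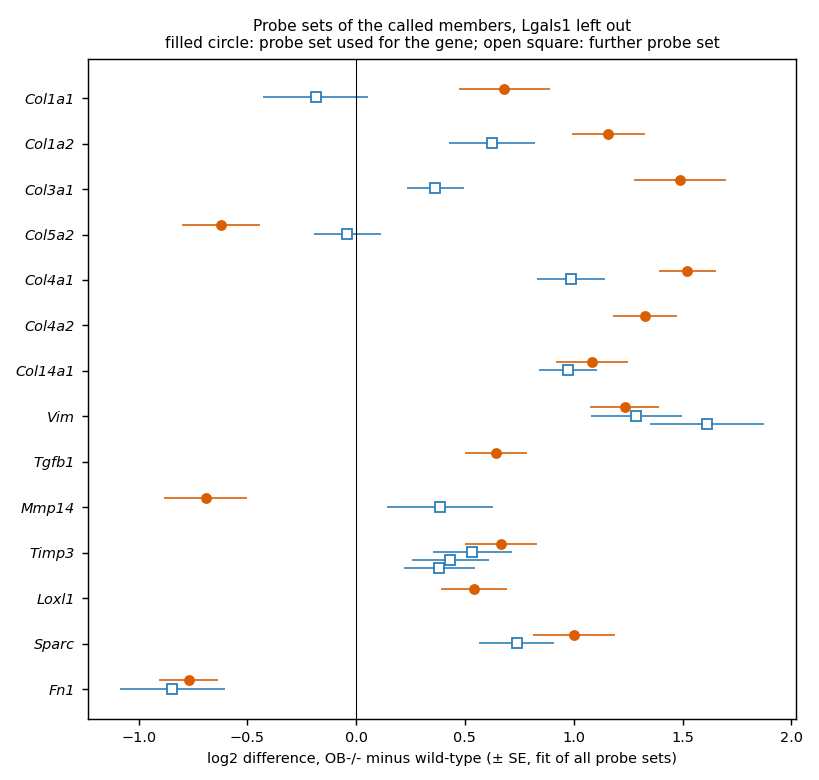
Log2 difference ± SE, OB-/- minus wild-type, for each probe set of the called members, Lgals1 left out, with filled circles for the probe set used and open squares for further ones. Further probe sets of Col1a1 (-0.19) and Mmp14 (0.39) lie on the other side of 0 from the one used.

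**Figure D4:**
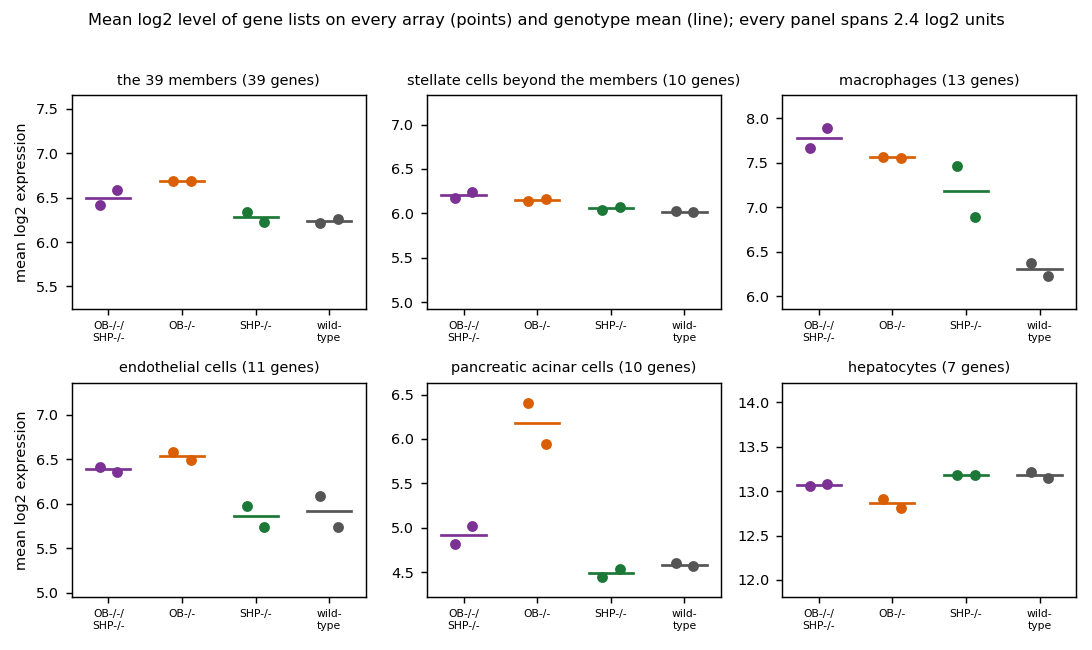
Mean log2 expression of the 39 members and of 5 marker lists on every array, with a line for each genotype mean and an equal span in each panel. Macrophage markers separate wild-type from the other genotypes, and pancreatic acinar genes were highest on both OB-/- arrays.

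Leptin loss without SHP, OB-/-/SHP-/- against SHP-/-, called 4 of 39 members (10.3%), all higher, against 10.6% of all genes, 4.95% higher and 5.62% lower, so the members' share was near that of the array. The members' median was 0.18 and that of all genes 0.03, and 12 members had an unadjusted p below 0.05. Lgals1 rose 11.7-fold (3.55 ± 0.28, adjusted p = 1.8e-05), from the values given above. Vim read 7.29 and 7.41 in OB-/-/SHP-/- livers, against 6.69 and 6.41 in SHP-/- livers (0.80 ± 0.16, adjusted p = 0.00963). Sparc read 8.33 and 8.18 in OB-/-/SHP-/- livers, against 7.74 and 7.16 in SHP-/- livers (0.80 ± 0.19, adjusted p = 0.0215). Timp3 read 6.45 and 6.54 in OB-/-/SHP-/- livers, against 6.08 and 5.71 in SHP-/- livers (0.60 ± 0.17, adjusted p = 0.0432). No array of one genotype overlapped the other in these 4 genes, which adds nothing to calls made on the same arrays. The call of Lgals1 stood with any single array left out. Those of Vim and Sparc were lost without SHP-/- replicate 2 or OB-/-/SHP-/- replicate 2, and the adjusted p of Vim then reached 0.0674. Sparc was also lost when OB-/-/SHP-/- replicate 1 was left out, and its adjusted p reached 0.143 over these 3 cases. Timp3 was lost in 7 of 8 cases (up to 0.257). Without SHP-/- replicate 2 only Lgals1 was called.

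In the main fit no collagen among the members passed in this comparison. Col14a1 passed when the probe sets of each gene were averaged. Col1a1 read 4.32 and 5.08 in OB-/-/SHP-/- livers and 4.27 and 4.34 in SHP-/- livers. Its difference therefore depends on which OB-/-/SHP-/- array is used. Col3a1 read 6.23 and 6.89 in OB-/-/SHP-/- livers and 6.43 and 6.00 in SHP-/- livers, so the arrays overlapped (0.34 ± 0.21, adjusted p = 0.335). Col1a2 read 6.31 and 6.77 in OB-/-/SHP-/- livers and 6.27 and 6.01 in SHP-/- livers (0.40 ± 0.17, adjusted p = 0.161). Col4a1 read 6.79 and 6.83 in OB-/-/SHP-/- livers and 6.78 and 6.83 in SHP-/- livers, which is no separation at all (0.01 ± 0.13, adjusted p = 0.979). Col4a2 gave 0.09 ± 0.15. In this comparison, which shares no array with OB-/- against wild-type, 30 of 39 members (76.9%) had the same sign as there, against 72.3% of all genes. Across the 39 members the differences correlated at r = 0.81 (Spearman's rho 0.55), and at 0.45 (0.51) without Lgals1. Over all genes r was 0.72 and rho 0.65, so by rank the members did not agree more closely than the array. Macrophage markers averaged 7.67 and 7.89 in OB-/-/SHP-/- livers and 7.47 and 6.89 in SHP-/- livers, with 4 of 13 called higher, and 2 of 11 endothelial markers were called higher. Of the 10 further stellate cell markers 1 was called, Cygb, a globin of stellate cells, which rose by 0.71 ± 0.16 (adjusted p = 0.0162). Of 10 pancreatic acinar genes 4 were called, 3 higher and 1 lower, and the list averaged 4.82 and 5.02 in OB-/-/SHP-/- livers and 4.44 and 4.53 in SHP-/- livers. The part of these markers was not tested.

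**Figure D5:**
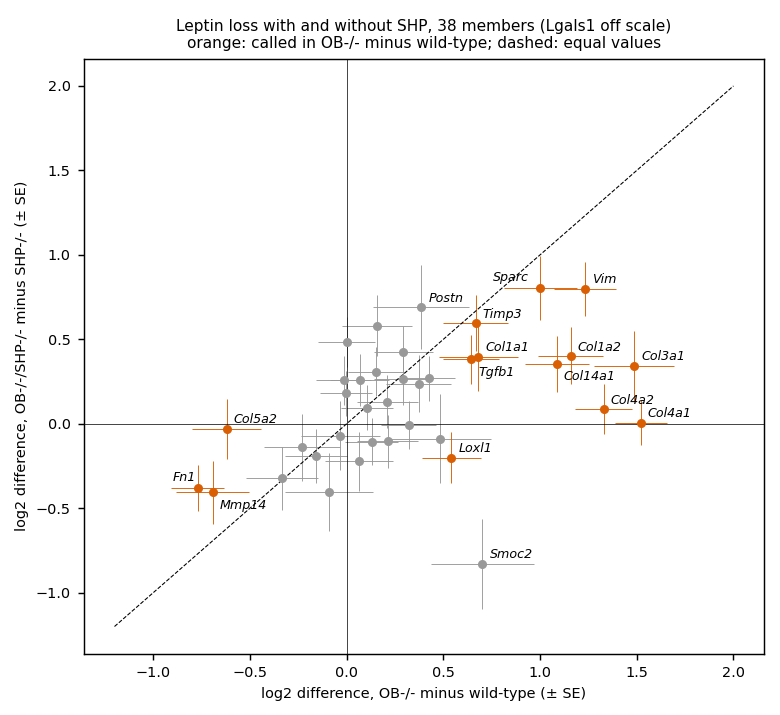
Log2 difference ± SE of 38 members, with OB-/- minus wild-type on the x axis and OB-/-/SHP-/- minus SHP-/- on the y axis, Lgals1 (4.87 and 3.55) being off the scale. Sparc and Timp3 lie near the line of equal values, Vim lies somewhat below it, and Col4a1, Col4a2 and Col3a1 lie far below it.

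Loss of SHP in leptin-null livers, OB-/-/SHP-/- against OB-/-, called 4 of 39 members (10.3%), 1 higher and 3 lower, against 2.14% of all genes, 1.26% higher and 0.880% lower. The members' median was -0.12, that of all genes 0.01, and 10 members had an unadjusted p below 0.05. This comparison shares its OB-/- arrays with that of OB-/- against wild-type, so a deviation of those arrays enters both with opposite sign, and agreement between them carries no weight of its own.

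Col3a1, at 6.23 and 6.89 in OB-/-/SHP-/- livers and 7.75 and 7.74 in OB-/- livers, fell by 1.19 (SE 0.21, adjusted p = 0.0122). Its OB-/-/SHP-/- arrays differed from each other more than the OB-/- arrays did, yet both lay below them. Col4a1, at 6.79 and 6.83 in OB-/-/SHP-/- livers and 7.60 and 7.67 in OB-/- livers, fell by 0.82 (SE 0.13, adjusted p = 0.00788). Lgals1 fell by 1.48 (SE 0.28, adjusted p = 0.0183), and its second probe set fell by 1.44 (adjusted p = 0.0220 over all probe sets). Further probe sets of Col3a1 and Col4a1 pointed the same way, at -0.43 and -0.66, without passing (adjusted p = 0.204 and 0.0861 over all probe sets). Fn1 rose to 12.31 and 12.41 in OB-/-/SHP-/- livers, against 11.75 and 11.76 in OB-/- livers (0.60 ± 0.14, adjusted p = 0.0485).

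Of the 39 members, 27 had a lower mean in OB-/-/SHP-/- than in OB-/- livers, and 3 of these passed. Those with an unadjusted p below 0.05 that did not pass were Col4a2 (-0.53 ± 0.15, adjusted p = 0.128), Loxl1 (-0.51 ± 0.15, adjusted p = 0.154), Col6a1 (-0.58 ± 0.18, adjusted p = 0.160), Col1a2 (-0.46 ± 0.17, adjusted p = 0.267) and Rgs5 (-0.42 ± 0.19, adjusted p = 0.402). Vim, Sparc and Timp3, which were higher in both leptin-null genotypes than in their leptin-intact counterparts, differed here by -0.14, -0.10 and -0.12. The stellate cell genes Acta2, Des and Lrat were not called, at -0.11, 0.11 and -0.49, nor was Pdgfra at 0.42 ± 0.15 (adjusted p = 0.236).

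These 4 calls were not stable when an array was left out, which also leaves the test with fewer arrays. Without either OB-/- array limma called 0 members, with 9 (without replicate 1) and 5 (without replicate 2) at an unadjusted p below 0.05, and without OB-/-/SHP-/- replicate 1 only Col4a1 was called. Col3a1 was lost in 3 of 8 such cases, Col4a1 in 2, Lgals1 in 4 and Fn1 in 6, with adjusted p up to 0.116, 0.0974, 0.204 and 0.277. With OB-/- replicate 1 and SHP-/- replicate 1 both left out, 1 member was called, Lgals1. Fn1 also missed the threshold with arrays set to equal medians. Pancreatic acinar genes were lower in OB-/-/SHP-/- than in OB-/- livers, with 4 of 10 called, all lower, and their part in the falls of collagens and Lgals1 was not tested. Macrophage markers averaged 7.67 and 7.89 in OB-/-/SHP-/- livers and 7.57 and 7.56 in OB-/- livers, with 2 of 13 called, both higher. Of the further stellate cell markers limma called 0 of 10 in this comparison, 2 being at an unadjusted p below 0.05, with means of 6.18 and 6.24 in OB-/-/SHP-/- and 6.14 and 6.17 in OB-/- livers.

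SHP loss with leptin intact, SHP-/- against wild-type, called 1 of 39 members (2.6%), against 0.323% of all genes, 0.226% higher and 0.0968% lower. The members' median was -0.01 and that of all genes -0.03, and 10 members had an unadjusted p below 0.05. The called member was Smoc2, a secreted calcium-binding protein of the matrix, which rose 3.64-fold (1.86 ± 0.27, adjusted p = 0.0130). Its values were 5.48 and 6.21 in OB-/-/SHP-/-, 5.38 and 5.64 in OB-/-, 6.29 and 7.05 in SHP-/- and 4.92 and 4.71 in wild-type livers. The wild-type arrays were the lowest and the SHP-/- arrays the highest, 0.76 apart from each other. The second Smoc2 probe set rose by 1.20 (adjusted p = 0.0208 over all probe sets). Without either wild-type array the call was lost (adjusted p up to 0.223). In leptin-null livers the same loss of SHP gave 0.33 ± 0.27, and the interaction of -1.53 ± 0.37 did not pass (adjusted p = 0.147).

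Both type IV chains were higher in SHP-/- than in wild-type livers without passing. Col4a1, at 6.78 and 6.83 in SHP-/- against 6.22 and 6.01 in wild-type livers, differed by 0.69 ± 0.13 (adjusted p = 0.0724), and Col4a2, at 5.68 and 5.56 against 4.94 and 4.88, by 0.71 ± 0.15 (adjusted p = 0.0967). Col5a2 (-0.75 ± 0.18, adjusted p = 0.156) and Postn (-0.83 ± 0.25, adjusted p = 0.349) had lower means. Postn, a matrix protein of injured tissue, read 6.39 and 6.48 in SHP-/- and 6.80 and 7.73 in wild-type livers, whose arrays disagreed by 0.93. Macrophage markers averaged 7.47 and 6.89 in SHP-/- livers and 6.38 and 6.23 in wild-type livers. Of these 13 markers only Mpeg1 was called, higher by 1.74 ± 0.18 (adjusted p = 0.00173). The Gapdh offset was 0.27 in SHP-/- and 0.90 in wild-type RNA. The part of the markers or of the offset was not tested.

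The interaction asks for which members SHP loss acted differently in leptin-null and in leptin-intact livers, and equally for which members leptin loss acted differently with and without SHP. It called 2 of 39 members (5.1%), both lower, against 0.549% of all genes, 0.355% higher and 0.194% lower, and 10 members had an unadjusted p below 0.05. These were the paired type IV genes, with -1.51 ± 0.19 for Col4a1 (adjusted p = 0.00258) and -1.24 ± 0.21 for Col4a2 (adjusted p = 0.0238). Col4a1 was higher with leptin loss by 1.52 when SHP was present and by 0.01 when it was absent, and Col4a2 differed by 1.33 and 0.09 in these 2 comparisons. For both genes the arrays of OB-/-/SHP-/- and of SHP-/- lay between those of OB-/- above and wild-type below. The 2 genes lie head to head on chromosome 8, with annotated starts 21 bases apart, at 11312826 on the - strand for Col4a1 and 11312805 on the + strand for Col4a2 (GRCm38.p6), so the transcripts overlap at their 5′ ends. The Col4a1 call stood with any single array left out, while that of Col4a2 was lost in 5 of 8 such cases (adjusted p up to 0.144). The further Col4a1 probe set gave -0.99 (adjusted p = 0.111 over all probe sets). Col3a1 had an interaction of -1.14 ± 0.29 that did not pass (adjusted p = 0.185), as did Col1a2 at -0.76 ± 0.24 (adjusted p = 0.317) and Lgals1 at -1.32 ± 0.40 (adjusted p = 0.289). Pancreatic acinar genes, with 3 of 10 called lower in the interaction, moved alongside. Macrophage markers other than Marco (0.56) had negative interactions, down to -1.25 for Vsig4. Endothelial markers went both ways, from -1.38 for Lyve1 to 0.82 for Vwf. None of these macrophage or endothelial markers passed. The Gapdh offset was 0.07 in OB-/-/SHP-/-, -0.04 in OB-/-, 0.27 in SHP-/- and 0.90 in wild-type RNA. The same offset of Actb was 0.86, 0.83, 1.30 and 1.88 in this order. The part of these measures was not tested.

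Across the 5 comparisons 16 of the 39 members were called at least once and 23 never. Among those never called, Dcn ranged from 9.72 to 10.47, Bgn from 8.35 to 8.76, Lum from 5.89 to 6.25, Tagln, a smooth muscle cytoskeletal gene, from 5.29 to 5.79 and Thbs1 from 3.51 to 3.96 over all arrays.

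Genes that work around the collagens were counted in 8 lists. In OB-/- against wild-type 19 of their 100 measured genes were called, a share near the 16.9% of all genes, and 7 of the 19 were laminins and related proteins. Of 13 laminins and other basement membrane proteins 7 were called, 5 higher and 2 lower, with a median of 0.29 (all genes -0.01). Lamb3, a laminin beta chain, rose by 1.99 ± 0.20 (adjusted p = 1.0e-04), Nid1, which links laminin to type IV collagen, by 0.97 ± 0.15 (adjusted p = 0.00137) and the laminin chain Lamc1 by 0.58 ± 0.13 (adjusted p = 0.0118). In the transforming growth factor beta pathway 3 of 19 were called, all higher, with a list median of 0.20. Of all genes 16.9% were called in either direction and 7.58% were called higher. The 3 pathway genes were the receptor Tgfbr2 (1.96 ± 0.21, adjusted p = 1.3e-04), the latent complex protein Ltbp4 (1.07 ± 0.20, adjusted p = 0.00394) and the endothelial co-receptor Eng (0.54 ± 0.15, adjusted p = 0.0272). Of 9 response genes of that pathway 1 was called, Id2, an inhibitor of helix-loop-helix factors, which fell (-1.43 ± 0.17, adjusted p = 3.0e-04), and the list's median was -0.13.

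Enzymes that fold and process collagen moved little as a list, with a median of 0.02 and 3 of 15 called in OB-/- against wild-type. This count and those of the lists that follow are to be read against the 16.9% of all genes called. Pcolce, an enhancer of procollagen cleavage, rose by 0.74 ± 0.13 (adjusted p = 0.00366), and the prolyl isomerase Ppib and the procollagen protease Bmp1 fell (-0.49 and -0.48, adjusted p = 0.0261 and 0.0349). Of 13 other collagens 1 was called, Col5a3, at 1.23 ± 0.20 (adjusted p = 0.00174). Other metalloproteinases and inhibitors had 2 of 16 called, Mmp19 higher (1.08, adjusted p = 0.00142) and the sheddase Adam17 lower (-0.78, adjusted p = 0.00696). Integrins, the matrix receptors, had 2 of 11 called, the laminin receptor subunit Itga6 higher (1.67, adjusted p = 3.3e-04) and Itgav lower (-0.48, adjusted p = 0.0371). Averaging all probe sets of a gene turned Bmp1 to 0.074 and Itgav to 0.16. With 1 array left out, the calls of Eng, Ppib, Bmp1 and Itgav were lost without any one of the 4 arrays compared (adjusted p up to 0.208), that of Lamc1 in 3 of 8 cases (up to 0.0936) and that of Adam17 in 2 (up to 0.0723). Of the 4 platelet-derived growth factor ligands limma called 0, and 0 were at an unadjusted p below 0.05, and Pdgfa, the brightest of their probe sets, lay between 5.70 and 6.17.

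In OB-/-/SHP-/- against OB-/-, 3 of the 100 genes of these lists were called, against 2.14% of all genes. Lamb3 fell by 1.35 (SE 0.20, adjusted p = 0.00536), Col5a3 fell by 1.08 (SE 0.20, adjusted p = 0.0148) and Skil, a repressor of SMAD signalling, rose by 0.87 ± 0.16 (adjusted p = 0.0148). Lamb3 was lost without OB-/- replicate 1, Skil without OB-/- replicate 2 or OB-/-/SHP-/- replicate 1, and Col5a3 without any one of its 4 arrays (adjusted p up to 0.0824, 0.191 and 0.165). Leptin loss without SHP, OB-/-/SHP-/- against SHP-/-, called 8 of the 100 genes, no larger a share than the 10.6% of all genes. Tgfbr2 (1.51), Eng (0.60), Lamc1 (0.63), Col13a1 (0.59) and Tgfb1i1 (0.52) rose, and Id2 (-0.88), Lama3 (-1.35) and Adam17 (-0.63) fell, with adjusted p from 2.1e-04 for Lama3 to 0.0381 for Col13a1. Of these 8, Tgfbr2 and Lama3 kept their calls with any single array left out. Tgfbr2 read 8.68 and 8.71 in OB-/-/SHP-/-, 8.38 and 8.64 in OB-/-, 7.24 and 7.13 in SHP-/- and 6.91 and 6.18 in wild-type livers, so both leptin-null genotypes lay above both leptin-intact ones. Of the 100 genes measured in these lists limma called 0 in SHP-/- against wild-type and 0 in the interaction, while 13 and 14 had an unadjusted p below 0.05.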

How the data were processed

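The authors deposited log2-scale values of 22690 probe sets on 8 arrays, and the submitters' processing notes name R 2.15.0. How background was corrected and probes summarised is not given here, nor is the log base. The deposited values ran from 2.20 to 14.19 and were read as log2. They were used as deposited, without a filter. Control probe sets (64) were left out, and 20380 of the other 22626 named 1 gene, 691 several and 1555 none in the array annotation. Of their gene IDs 20351 matched RefSeq's table of GRCm38.p6, which changed 0 symbols.

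In limma 3.58.1 (R 4.3.3, package data.table in version 1.17.8) a model with a mean for each genotype was fitted over the 8 arrays, with 4 residual and 7.16 prior degrees of freedom, and was tested on simulated data. Figures were drawn in Python 3.11.15 with pandas 2.3.3 and matplotlib 3.10.9. Tests were two-sided, with Benjamini-Hochberg adjustment over 12393 genes within each of 5 comparisons. The median SE was 0.15, and the number of arrays limits the precision. The members, their grouping by role, the 8 lists of related genes and the 11 marker lists were chosen with earlier results of these data known.

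Every member could be named. Of each other list, up to 3 called genes by smallest adjusted p were named per comparison, or up to 2 by highest mean where none was called. The alternatives were equal array medians, quantile normalisation, dim genes left out, eBayes with a trend or robust, averaging the probe sets of each gene, leaving out x_at and s_at probe sets, a fit to only the 4 arrays of a comparison, a block for replicate number, each array left out in turn, and OB-/- replicate 1 with SHP-/- replicate 1 left out. Further probe sets of called members were added after seeing the data.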

Additional observations from a re-analysis of the deposited data

Results flagged for a closer look

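Col4a1 and Col4a2, which encode the chains of type IV collagen, stood out because losing SHP had different effects in leptin-null and leptin-intact livers by the interaction test. The difference was -1.51 ± 0.19 (adjusted p = 0.00258) for Col4a1 and -1.24 ± 0.21 (adjusted p = 0.0238) for Col4a2. In leptin-null livers the effect of SHP loss, OB-/-/SHP-/- minus OB-/-, was -0.82 for Col4a1 and -0.53 for Col4a2, and in leptin-intact livers, SHP-/- minus wild-type, it was 0.69 and 0.71. Of these 4 values only the fall of Col4a1 in leptin-null livers passed by itself. With 2 arrays per genotype, a test for outliers within a genotype was not possible. OB-/- replicate 1, which enters both interactions, differed from replicate 2 in Xist (7.41 against 4.70). The part of this in the 2 results was not tested.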

How the results depend on the processing

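Over the calls of members, 234 of 256 values under other settings kept direction and threshold and 22 missed the threshold. With 1 array left out it was 154 of 208, and 54 missed it. With 1 array left out the count of called members ranged from 9 to 16 in OB-/- minus wild-type, from 0 to 4 in OB-/-/SHP-/- minus OB-/-, from 1 to 6 in OB-/-/SHP-/- minus SHP-/-, from 0 to 2 in SHP-/- minus wild-type and from 1 to 4 in the interaction. The genotype left with a lone array is then assumed to vary like the others. In OB-/-/SHP-/- minus SHP-/- the count was 2 with only the 4 arrays compared, and 7 with the replicate number as a block. The block gave 16 members in OB-/- minus wild-type, 3 in OB-/-/SHP-/- minus OB-/-, 1 in SHP-/- minus wild-type and 2 in the interaction. Deviations of replicate 1 correlated at r from -0.11 to 0.20 between genotypes. The labels do not say whether equal replicate numbers share a batch, and these correlations cannot decide it. With OB-/- replicate 1 and SHP-/- replicate 1 left out, 1 member was called in OB-/-/SHP-/- minus OB-/- and 1 in the interaction. Of 28 further probe sets, 10 kept the call, 16 missed the threshold, and those of Col1a1 (-0.19) and Mmp14 (0.39) had the opposite sign in OB-/- minus wild-type. There, averaging the probe sets of each gene turned Bmp1 to 0.074 and Itgav to 0.16 and gave 14 members higher and 1 lower, in place of 12 and 3. The cause of these changes was not tested.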

Other observations

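In OB-/- minus wild-type limma called 0 of 6 cholangiocyte genes and 0 of 3 mesothelial genes, with 0 at an unadjusted p below 0.05 in both lists, and 0 of 6 T and B cell genes, with 1. In OB-/-/SHP-/- minus SHP-/- the cholangiocyte gene Sox9, a transcription factor of bile duct cells, fell (-0.81 ± 0.20, adjusted p = 0.0295), at 4.28 and 4.41 in OB-/-/SHP-/- livers and 5.06 and 5.25 in SHP-/- livers. Of 3 adipocyte genes Retn, which encodes resistin, was called higher in OB-/- minus wild-type and in OB-/-/SHP-/- minus SHP-/-. It read 6.13 and 5.87 in OB-/-/SHP-/-, 5.60 and 5.93 in OB-/-, 5.06 and 4.93 in SHP-/- and 5.00 and 5.28 in wild-type livers, while Adipoq, the fat cell hormone adiponectin, lay between 2.79 and 3.07. The smooth muscle gene called higher in OB-/- was Tpm2, a tropomyosin, at 7.40 and 7.60 in OB-/- livers and 6.50 and 6.83 in wild-type livers.

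Some response genes of the transforming growth factor beta list differed widely between arrays of a genotype, and these were chosen after their values were seen. Ccn1, a matrix-associated protein, read 4.36 and 4.62 in OB-/-/SHP-/-, 4.78 and 4.64 in OB-/-, 6.74 and 4.80 in SHP-/- and 5.78 and 5.68 in wild-type livers. Junb, a subunit of the transcription factor AP-1, read 7.32 and 7.37 in OB-/-/SHP-/-, 7.23 and 6.77 in OB-/-, 9.28 and 7.54 in SHP-/- and 7.59 and 8.33 in wild-type livers. In both genes SHP-/- replicate 1 was the highest array.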
